A study of Homo sapiens with 27 samples.

Results

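The genes described here are the nuclear genes for subunits of the mitochondrial respiratory chain and of ATP synthase. They were found by name: NDUFA, NDUFB, NDUFC, NDUFS and NDUFV genes of complex I, the SDH genes of complex II, a fixed list of UQCR genes and CYC1 for complex III, COX4 to COX8 genes for complex IV, and genes whose name begins with ATP5 for complex V. Of 27115 genes in the files, 87 had such a name, and the 80 with a level of at least 1 CPM (reads scaled to library size) in at least 3 libraries were kept. All 80 reached 1 CPM in 27 of 27 libraries. They comprised 37 genes of complex I, 4 of complex II, 9 of complex III, 12 of complex IV and 15 of complex V. The other 3 begin with ATP5 but do not encode subunits: ATP5S and ATP5SL, and ATP5EP2, a processed pseudogene of ATP5E. NDUFA4 was counted with complex IV, in which its protein is found, and COX7A2L, which helps join complexes III and IV, was kept there by its name. The names are those of the annotation used in the files; ATP5A1, for instance, is now ATP5F1A.

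RNA was measured in Karpas422, OCI-Ly1 and HBL1 cells, established lines of human diffuse large B-cell lymphoma (DLBCL) that the study takes as examples of the OXPHOS, germinal centre B-cell-like and activated B-cell-like subtypes. The cells had been transduced for 8 days with a lentivirus carrying a scrambled control shRNA (shCTRL) or 1 of 2 shRNAs against SIRT3 (shSIRT3-1 and shSIRT3-2), and all carried the vector with its puromycin resistance gene and YFP. Each line and shRNA had 3 libraries, 27 in all, and each subtype was represented by 1 line. The study describes its knockdowns as replicated in every line, but neither its text nor the labels say whether replicates were separate cultures, so the p-values measure the spread between these libraries, which may be technical. Both shRNAs were set against the same shCTRL libraries.

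Complexes I to IV pass electrons from NADH and succinate to oxygen and, except for complex II, pump protons across the inner mitochondrial membrane. Complex V uses the proton gradient to make ATP. Most subunits are encoded in the nucleus, while a few core subunits of complexes I, III, IV and V come from the mitochondrial genome, none of which is listed in the files. SIRT3 is a mitochondrial deacetylase, and subunits such as NDUFA9, SDHA, ATP5A1 and ATP5O are among the proteins it acts on. Its action is on proteins, whereas the values below are RNA levels.

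SIRT3 itself fell with both shRNAs. Its 9 shCTRL libraries lay at 9.142 to 16.35 CPM, the 9 with shSIRT3-1 at 1.058 to 2.787, and the 9 with shSIRT3-2 at 2.84 to 6.24, with no overlap with shCTRL. The fitted change was -2.45 (SE 0.17, limma adjusted p = 3.81e-10) with shSIRT3-1 and -1.37 (SE 0.17, adjusted p = 2.21e-06) with shSIRT3-2, both on the log2 scale.

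The libraries held 28694398 to 53405456 reads on genes, and HBL1 shCTRL replicate 2 was the shallowest. The B-cell markers MS4A1, CD79A, CD79B and PAX5 were at 1 CPM or more in every library. Of the 4 activated B-cell markers, 4 were at 1 CPM or more in all 9 HBL1 libraries, but 1 in each of the other lines. Of 5 germinal centre markers, 2 were so in HBL1 and 4 in each of the other lines. The 8 markers of T cells, monocytes, epithelium and fibroblasts summed to at most 2.57 CPM in any Karpas422 library, and the OCI-Ly1 libraries reached 0.766 CPM. In HBL1 they summed to 17.8 to 22.8 CPM with shCTRL, 6.26 to 8.80 with shSIRT3-1 and 40.9 to 65.8 with shSIRT3-2, mostly from COL1A2 and EPCAM, while 6 of the 8 stayed under 1 CPM, CD3D at 0. Their part in the HBL1 results was not tested. Some libraries stood apart from the others of their group. In HBL1 shSIRT3-1 replicate 3, CCND2 was at 126 CPM against 677 and 758 in the other replicates of the group, and IRF4 at 72.7 against 168 and 194.5. In OCI-Ly1 shCTRL replicate 1, the members were higher than in the other 2 replicates by a median of 0.39 on the log2 scale, while the median of all genes tested differed by 0.00. The same median difference of the members was -0.223 in OCI-Ly1 shCTRL replicate 2, beside 0.058 for all genes. It was -0.218 in HBL1 shCTRL replicate 3, beside -0.034, and -0.206 in OCI-Ly1 shSIRT3-1 replicate 2, beside -0.053.

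The first question was how the members responded to loss of SIRT3 across the lines. Most did not pass the test, and most of those that did were higher. With shSIRT3-1, 17 of 80 members rose and 6 fell at an adjusted p under 0.05. With shSIRT3-2, 23 rose and 10 fell. Among all 13076 genes tested, 15.6% were higher and 22.3% lower with shSIRT3-1, and 16.3% were higher and 21.7% lower with shSIRT3-2. The median log2 fold change of the members was 0.05 with shSIRT3-1, beside -0.05 for all genes, and 0.10 with shSIRT3-2, beside -0.03. The first of these medians was 0.12 with quantile normalization and 0.08 with median-ratio scaling, and without single libraries it reached 0.10 (OCI-Ly1 shCTRL replicate 1), 0.09 (HBL1 shSIRT3-1 replicate 3 or Karpas422 shCTRL replicate 1) and 0.08 (Karpas422 shCTRL replicate 2). The changes were small: at 1.5-fold, 13.0% of all genes were called with shSIRT3-1 and 13.5% with shSIRT3-2, but of the 80 members only COX7C was called with each. These are shares of RNA in bulk cultures, in which fewer cells of a kind and less RNA per cell cannot be told apart. After a correction for GC content and transcript length, 12 members were higher and 14 lower with shSIRT3-1, so the excess of rises with that shRNA depended on the scale; quantile normalization gave 27 and 4, and median-ratio scaling and edgeR 22 and 4 each. Of all genes with shSIRT3-1, 1947 of 12715 were higher and 2733 lower with the correction, and 2898 and 2322 of 13078 with quantile normalization. Median-ratio scaling gave 2325 and 2710 of 13080 genes, and edgeR 2463 and 2755 of 13076. With shSIRT3-2 the corrected split was 17 and 7, beside 2120 and 2706 of 12715 genes. Without OCI-Ly1 shCTRL replicate 1 the splits were 25 and 5 with shSIRT3-1 and 26 and 8 with shSIRT3-2. Without HBL1 shSIRT3-1 replicate 3 they were 18 and 5 and 24 and 11. Other libraries lowered the rises with shSIRT3-2. Without OCI-Ly1 shCTRL replicate 2 the splits were 17 and 6 and 15 and 10, with 1952 of 13045 genes higher and 2629 lower with shSIRT3-2. Without HBL1 shCTRL replicate 3 they were 17 and 5 and 16 and 11, with 1927 of 12991 genes higher and 2555 lower with shSIRT3-2. At 1.5-fold, 2 members passed with shSIRT3-1 without any 1 of HBL1 shCTRL replicate 1, HBL1 shSIRT3-1 replicate 3, Karpas422 shCTRL replicate 3, Karpas422 shSIRT3-1 replicate 2 and OCI-Ly1 shCTRL replicate 1, and 2 with shSIRT3-2 without the last of these.

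**Figure D1:**
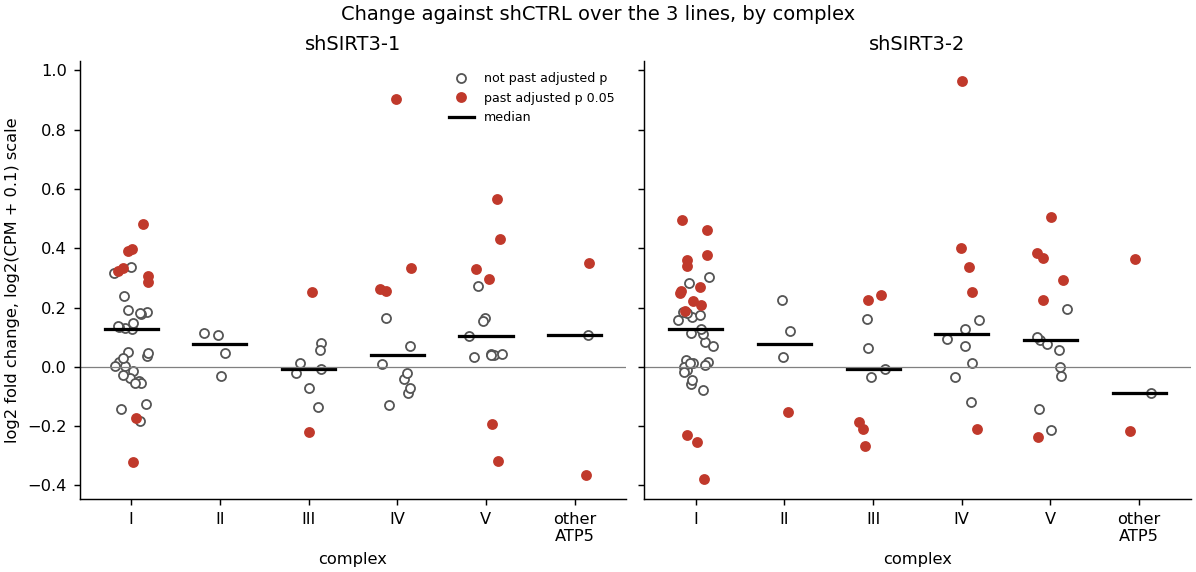
Log2 fold change of each of the 80 members against shCTRL over the 3 lines (vertical axis, on the log2(CPM + 0.1) scale) by complex (horizontal axis), for each shRNA. Filled points passed the adjusted p, open points did not, and bars are medians; COX7C, in complex IV, stands above all other points at 0.90 and 0.96.

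By complex, 7 genes of complex I rose and 2 fell with shSIRT3-1, and 11 rose and 3 fell with shSIRT3-2, with a median of 0.13 with each. In complex II, 0 of 4 genes passed the test with shSIRT3-1 and 1 fell with shSIRT3-2. Complex III had 1 rise and 1 fall with shSIRT3-1 and 2 rises and 3 falls with shSIRT3-2, around a median of -0.01 with each. In complex IV, 4 genes rose and 0 fell with shSIRT3-1, and 4 rose and 1 fell with shSIRT3-2. In complex V, 4 rose and 2 fell, and then 5 rose and 1 fell. Differences between complexes were not tested.

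COX7C (hg19 chr5:85913745-85916779, plus strand) encodes a small subunit of complex IV. In Karpas422 its level was 35.0, 37.3 and 26.5 CPM with shCTRL, 67.15, 67.3 and 64.4 with shSIRT3-1, and 74.8, 74.5 and 77.4 with shSIRT3-2. In OCI-Ly1 it was 73.5, 54.7 and 61.8 with shCTRL, 108, 87.6 and 104.5 with shSIRT3-1, and 105, 88.3 and 96.3 with shSIRT3-2. In HBL1 it was 58.6, 68.7 and 46.75 with shCTRL, 113.3, 115 and 123.0 with shSIRT3-1, and 127.5, 119.9 and 113 with shSIRT3-2. In each line every knockdown library lay above every shCTRL library. The fitted change was 0.90 (SE 0.09, limma adjusted p = 5.43e-08), or 1.87-fold, with shSIRT3-1 and 0.96 (SE 0.09, adjusted p = 3.92e-08), or 1.95-fold, with shSIRT3-2. COX7C was called at 1.5-fold in each line alone with each shRNA, from 1.53-fold in OCI-Ly1 with shSIRT3-2 to 2.32-fold in Karpas422 with shSIRT3-2. In OCI-Ly1 alone its call was lost with shSIRT3-1 when any 1 of shCTRL replicates 2 and 3 or of the shSIRT3-1 libraries was left out, and with shSIRT3-2 for the same shCTRL replicates and any shSIRT3-2 library. The correction for GC content and length left its change over the 3 lines at 0.91 and 0.99.

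Smaller rises included members of complexes I, IV and V. ATP5G1 encodes subunit c, which forms the rotating ring of ATP synthase, and is 1 of 3 genes for the same mature protein. It rose by 0.57 (SE 0.14, adjusted p = 0.00332) with shSIRT3-1 and 0.50 (SE 0.14, adjusted p = 0.00801) with shSIRT3-2. Its replicates spread widely: in HBL1 it was 28.6, 23.0 and 16.3 CPM with shCTRL, 41.8, 41.7 and 23.5 with shSIRT3-1, and 43.1, 42.9 and 36.7 with shSIRT3-2. The shSIRT3-1 library at 23.5 overlapped the shCTRL group, although each shSIRT3-1 library was above the shCTRL library of its own number, whereas all 3 shSIRT3-2 libraries lay above the group. The shCTRL libraries of Karpas422 (35.9, 27.6 and 47.3) and OCI-Ly1 (38.1, 18.7 and 22.65) overlapped both knockdown groups of their line. ATP5G2, for the same subunit, fell by 0.24 (SE 0.07, adjusted p = 0.00743) with shSIRT3-2 and was at 0.04 with shSIRT3-1. The third gene, ATP5G3, was at 0.03 with shSIRT3-1 and 0.20 with shSIRT3-2, and did not pass the test with either.

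NDUFA3 and NDUFB2 encode small accessory subunits of complex I. NDUFA3 rose by 0.48 (SE 0.09, adjusted p = 0.000271) with shSIRT3-1 and 0.46 (SE 0.09, adjusted p = 0.000464) with shSIRT3-2. In Karpas422 it was 21.6, 18.6 and 23.3 CPM with shCTRL, 26.4, 26.2 and 26.7 with shSIRT3-1 and 29.1, 29.0 and 28.3 with shSIRT3-2, without overlap. In OCI-Ly1 the shCTRL libraries were at 32.2, 23.0 and 28.3 and overlapped both knockdown groups, whose libraries lay between 29.7 and 34.15. NDUFB2 rose by 0.50 (SE 0.09, adjusted p = 0.000198) with shSIRT3-2 and by 0.32 with shSIRT3-1. NDUFS5, also of complex I, rose by 0.40 (SE 0.11, adjusted p = 0.00685) with shSIRT3-1, but its corrected change was 0.25 (adjusted p = 0.0503). ATP5I, subunit e of ATP synthase, rose by 0.43 (SE 0.08, adjusted p = 0.000113) with shSIRT3-1. With the correction for GC content and length this was 0.06 (adjusted p = 0.467). The transcript listed for ATP5I has 303 bases. NDUFA4 rose by 0.40 (SE 0.08, adjusted p = 0.000549) with shSIRT3-2 and by 0.26 with shSIRT3-1. ATP5E, subunit epsilon, rose by 0.33 and 0.37, but its reads could be shared with ATP5EP2, which rose by 0.35 and 0.36.

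The falls were smaller and included large core subunits. NDUFS1 (hg19 chr2:206979541-207024233, minus strand) encodes the largest subunit of complex I, which holds iron-sulphur clusters on the path of the electrons. In HBL1 it was 91.0, 92.1 and 74.5 CPM with shCTRL, 60.2, 59.9 and 56.35 with shSIRT3-1, and 66.65, 68.7 and 66.8 with shSIRT3-2, and in OCI-Ly1 it was 81.4, 73.1 and 62.4, then 65.5, 53.9 and 63.75, then 66.2, 65.6 and 62.2. The groups were apart in HBL1 and overlapped in OCI-Ly1. Over the 3 lines NDUFS1 changed by -0.32 (SE 0.06, adjusted p = 0.000305) with shSIRT3-1 and -0.25 (SE 0.06, adjusted p = 0.00295) with shSIRT3-2. ATP5C1, the gamma subunit that forms the central stalk of ATP synthase, changed by -0.32 (SE 0.09, adjusted p = 0.00605) with shSIRT3-1. In Karpas422 it was 96.7, 99.2 and 100.6 CPM with shCTRL, 79.9, 74.2 and 65.3 with shSIRT3-1, and 79.5, 78.5 and 63.2 with shSIRT3-2, all below shCTRL. With shSIRT3-2 over the 3 lines it was at -0.21 (adjusted p = 0.055). UQCRC2, a core protein of complex III, changed by -0.22 (SE 0.06, adjusted p = 0.00696) with shSIRT3-1, and by -0.15 (adjusted p = 0.0722) with the correction. ATP5S, a factor for ATP synthase that is no subunit, changed by -0.36 (SE 0.07, adjusted p = 0.000251) with shSIRT3-1 and -0.22 with shSIRT3-2.

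With shSIRT3-2 the largest falls were in NDUFB5, UQCRH, NDUFS1, ATP5G2 and NDUFS7. NDUFB5, an accessory subunit of complex I, changed by -0.38 (SE 0.07, adjusted p = 0.000239), and in all 3 lines every shSIRT3-2 library lay below every shCTRL library. In HBL1 its levels were 49.45, 49.7 and 59.5 CPM with shCTRL and 38.5, 36.1 and 43.0 with shSIRT3-2, while shSIRT3-1 gave 53.2, 49.7 and 70.1. UQCRH, the hinge protein of complex III, changed by -0.27 (SE 0.09, adjusted p = 0.0175); the genome also holds the near-identical UQCRHL, with which reads could be shared. NDUFS7, a core subunit of complex I, changed by -0.23 (SE 0.06, adjusted p = 0.00564).

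**Figure D2:**
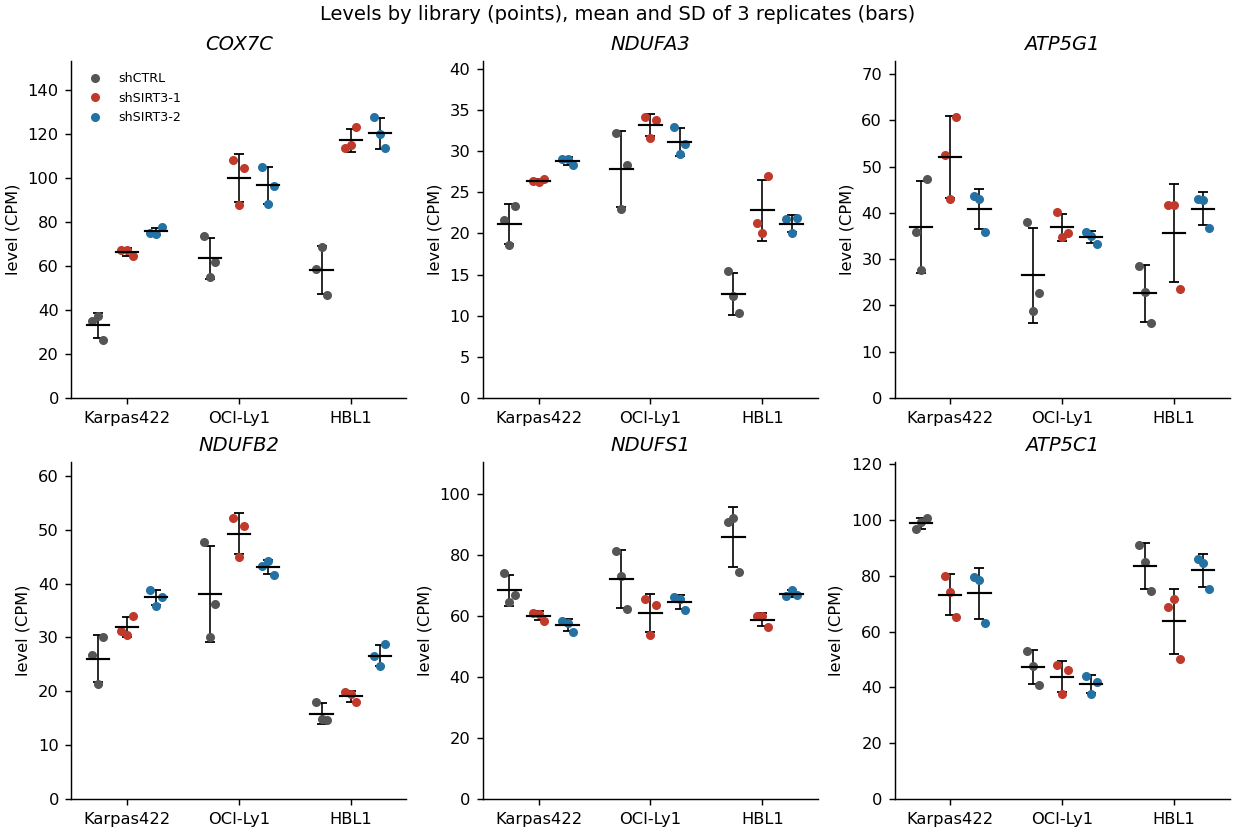
Levels in CPM (vertical axis) of COX7C, NDUFA3, ATP5G1, NDUFB2, NDUFS1 and ATP5C1 in each library (points) by line and shRNA (horizontal axis), with the mean and SD of 3 replicates as bars. COX7C is the only panel in which both knockdown groups lie above shCTRL without overlap in all 3 lines.

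The start regions of 7 of these genes are shown because the factors that drive many respiratory genes are known to bind close to the start: NRF1, GABPA of the ETS family, YY1 and ESRRA. Each line gives the 120 bases before the RefSeq start on GRCh38.p14, 5′ to 3′ on the gene's strand, in lower case, with letters that match a searched motif in capitals. The first 4 genes rose and the last 3 fell with at least 1 shRNA. They are a selection from the genes named above, and a gene without capitals may hold a motif outside the bases printed.
COX7C (chr5:86617821-86617940, plus strand): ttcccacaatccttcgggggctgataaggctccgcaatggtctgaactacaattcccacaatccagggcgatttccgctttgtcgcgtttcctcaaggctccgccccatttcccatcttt
NDUFA3 (chr19:54102735-54102854, plus strand): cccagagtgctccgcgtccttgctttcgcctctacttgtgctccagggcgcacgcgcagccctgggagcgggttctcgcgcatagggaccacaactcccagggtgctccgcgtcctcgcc
NDUFB2 (chr7:140696588-140696707, plus strand): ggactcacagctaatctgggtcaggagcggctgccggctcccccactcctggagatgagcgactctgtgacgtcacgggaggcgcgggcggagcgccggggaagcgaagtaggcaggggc
ATP5I (chr4:674277-674396, minus strand): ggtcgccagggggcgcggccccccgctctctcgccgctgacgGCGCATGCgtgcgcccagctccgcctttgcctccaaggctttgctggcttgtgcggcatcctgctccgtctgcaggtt
ATP5C1 (chr10:7788057-7788176, plus strand): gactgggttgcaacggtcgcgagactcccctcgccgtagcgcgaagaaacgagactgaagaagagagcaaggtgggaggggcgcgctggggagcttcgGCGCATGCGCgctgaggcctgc
UQCRH (chr1:46303578-46303697, plus strand): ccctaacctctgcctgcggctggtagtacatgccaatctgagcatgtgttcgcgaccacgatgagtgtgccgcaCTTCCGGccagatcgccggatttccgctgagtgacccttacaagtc
NDUFS7 (chr19:1383787-1383906, plus strand): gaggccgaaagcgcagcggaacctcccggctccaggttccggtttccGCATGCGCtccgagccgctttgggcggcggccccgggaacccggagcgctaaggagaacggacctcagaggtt

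The capitals mark GCGCATGC (NRF1) in ATP5I and ATP5C1, the same motif on the other strand in NDUFS7, and CCGGAAG (ETS) on the other strand in UQCRH; in ATP5C1 a pair of overlapping matches runs together. Both strands of the whole 300-base window, from 250 before to 50 after the start, were searched, and 64 members matched a window by symbol. GCGCATGC was found in 21.9% of these members and 3.7% of all 27305 genes with a window, CCGGAAG in 31.2% and 12.2%, AAGATGGC (YY1) in 18.8% and 3.5%, and AAGGTCA (ESRRA) in 15.6% and 4.8%. The 27305 genes were not filtered by level in these cells, whereas the members were. The sets are unlike, and the share among expressed genes was not counted. Among called members with a window, the NRF1, ETS, YY1 and ESRRA motifs were in 1, 3, 2 and 0 of 13 that rose with shSIRT3-1. Of the 5 that fell with it, they were in 2, 1, 2 and 1. With shSIRT3-2 they were in 3, 6, 2 and 1 of 18 that rose, and in 3, 3, 1 and 2 of 8 that fell. Differences between these counts were not tested. The matches describe letters in these windows, and binding was not measured.

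Averaged over the 3 lines, complex II and the proteins that SIRT3 is known to act on showed little change. Of these, SDHA, SDHC and NDUFA9 passed a test, described below, for a response that differed between the lines. SDHB was at 0.11 (SE 0.08) with shSIRT3-1 and 0.12 (SE 0.08) with shSIRT3-2, and SDHC at 0.12 (SE 0.11) and 0.03 (SE 0.11); none of these passed the test. SDHD, a membrane anchor of the complex, was at 0.05 (SE 0.05) and then -0.15 (SE 0.05, limma adjusted p = 0.0289), a call that was lost with the correction for GC content and length, with median-ratio scaling, and without HBL1 shSIRT3-2 replicate 3, Karpas422 shCTRL replicate 1 or 3, or OCI-Ly1 shCTRL replicate 1. With that correction SDHD passed the test with shSIRT3-1 instead, at 0.14 (adjusted p = 0.043). NDUFA9 was at 0.15 (SE 0.11) and -0.02 (SE 0.11). In single lines it rose in HBL1 (0.47, limma adjusted p = 0.0276, and 0.55, adjusted p = 0.0167). It fell in Karpas422 with shSIRT3-2 (-0.45, limma adjusted p = 0.00501). Over the 3 lines ATP5A1, the alpha subunit of ATP synthase, was at 0.05 (SE 0.07) and 0.09 (SE 0.07). ATP5O was at -0.19 (SE 0.08, adjusted p = 0.0478) with shSIRT3-1, a call lost under 4 of 8 other settings and without any 1 of 18 single libraries, among them each of the 9 HBL1 libraries, and at -0.14 with shSIRT3-2. SDHA, the flavoprotein that oxidizes succinate, was at -0.03 (SE 0.14) and 0.23 (SE 0.14), with opposite changes in the lines, given below.

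The pair of shRNAs was also compared directly. Between shSIRT3-2 and shSIRT3-1, 3 members were higher and 7 lower with shSIRT3-2, beside 16.6% and 15.1% of all genes. NDUFB5 (-0.35, SE 0.07, limma adjusted p = 0.000644), ATP5D, ATP5G2, UQCRH, ATP5I, SDHD and ATP5SL were lower, and UQCR11, NDUFA8 and NDUFV2 were higher, all by less than 1.5-fold. With the correction for GC content and length, 11 were higher and 4 lower, and with the replicate block as well 14 and 4. Quantile normalization gave 1 higher and 11 lower, and edgeR 1 and 7. Of all genes, 2167 of 12715 were higher and 1941 lower with the correction, and 2226 and 1971 with the block as well. Quantile normalization gave 2015 and 2138 of 13078 genes, and edgeR 2139 and 2421 of 13076. Without OCI-Ly1 shSIRT3-2 replicate 1, or without HBL1 shSIRT3-2 replicate 2, 6 members passed.

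The next question was whether the lines responded alike. By the interaction test, which asks whether the response to either shRNA differs between lines, 17 of 80 members passed at an adjusted p under 0.05, beside 41.8% of all 13076 genes. Of these, 11 belong to complex I. Without OCI-Ly1 shCTRL replicate 1, 26 members passed. NDUFA7 (adjusted p = 3.34e-06), NDUFA12 (0.000289), SDHA (0.000463), NDUFB8 (0.000592) and NDUFA5 (0.00141) had the smallest adjusted p (limma F test).

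NDUFA7, NDUFA12 and NDUFA5 encode accessory subunits of complex I. NDUFA7 (hg19 chr19:8373652-8386259, minus strand) was 6.96, 6.38 and 6.63 CPM in HBL1 with shCTRL, 13.95, 13.4 and 17.5 with shSIRT3-1, and 12.4, 12.1 and 13.4 with shSIRT3-2. In OCI-Ly1 it was 31.95, 28.9 and 29.5, then 28.4, 23.3 and 26.6, then 27.01, 22.6 and 26.6. The HBL1 groups were far apart, with a rise of 2.21-fold (SE 0.13 on the log2 scale, adjusted p = 0.000366) with shSIRT3-1 and 1.88-fold (SE 0.13, adjusted p = 0.00104) with shSIRT3-2, and the OCI-Ly1 groups lay the other way, at -0.21 and -0.25, without passing the test. In Karpas422, where NDUFA7 was 14.2 ± 0.6 CPM with shCTRL, the changes were 0.01 and 0.18. NDUFA12 changed by 0.55 (adjusted p = 0.00341) and 0.57 (adjusted p = 0.00337) in HBL1, and by -0.23 (adjusted p = 0.0927) and -0.44 (adjusted p = 0.0076) in Karpas422. NDUFA5 rose by 0.51 (adjusted p = 0.00162) and 0.46 (adjusted p = 0.00283) in HBL1 and was at -0.38 and -0.35 in Karpas422, where it did not pass.

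NDUFB8, another accessory subunit of complex I, was 34.0, 28.95 and 19.8 CPM in HBL1 with shCTRL, 57.5, 56.9 and 50.85 with shSIRT3-1, and 59.7, 58.9 and 53.5 with shSIRT3-2. All 6 knockdown libraries lay above the 3 shCTRL libraries, with changes of 1.03 (SE 0.18, adjusted p = 0.00252) and 1.09 (SE 0.18, adjusted p = 0.00226). In Karpas422 and OCI-Ly1 its changes lay between -0.15 and 0.03, and none passed the test.

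SDHA (hg19 chr5:218418-257197, plus strand) moved in opposite directions. In Karpas422 it was 52.4, 51.95 and 46.4 CPM with shCTRL, 32.0, 36.1 and 26.8 with shSIRT3-1, and 38.3, 40.3 and 29.3 with shSIRT3-2. In HBL1 it was 32.4, 28.95 and 26.2, then 38.8, 37.6 and 45.2, then 47.3, 45.1 and 49.2. All knockdown libraries lay below shCTRL in Karpas422 and above it in HBL1. The changes were -0.67 (SE 0.14, adjusted p = 0.00651) and -0.49 (SE 0.14, adjusted p = 0.0259) in Karpas422, and 0.47 (SE 0.11, adjusted p = 0.00973) and 0.70 (SE 0.11, adjusted p = 0.00203) in HBL1. In OCI-Ly1 they were 0.11 and 0.47 (adjusted p = 0.66 and 0.076), although with shSIRT3-2 all 3 libraries (88.1, 105.2 and 92.0) lay above shCTRL (75.5, 71.8 and 58.9). The genome also holds pseudogenes of SDHA, with which reads could be shared.

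**Figure D3:**
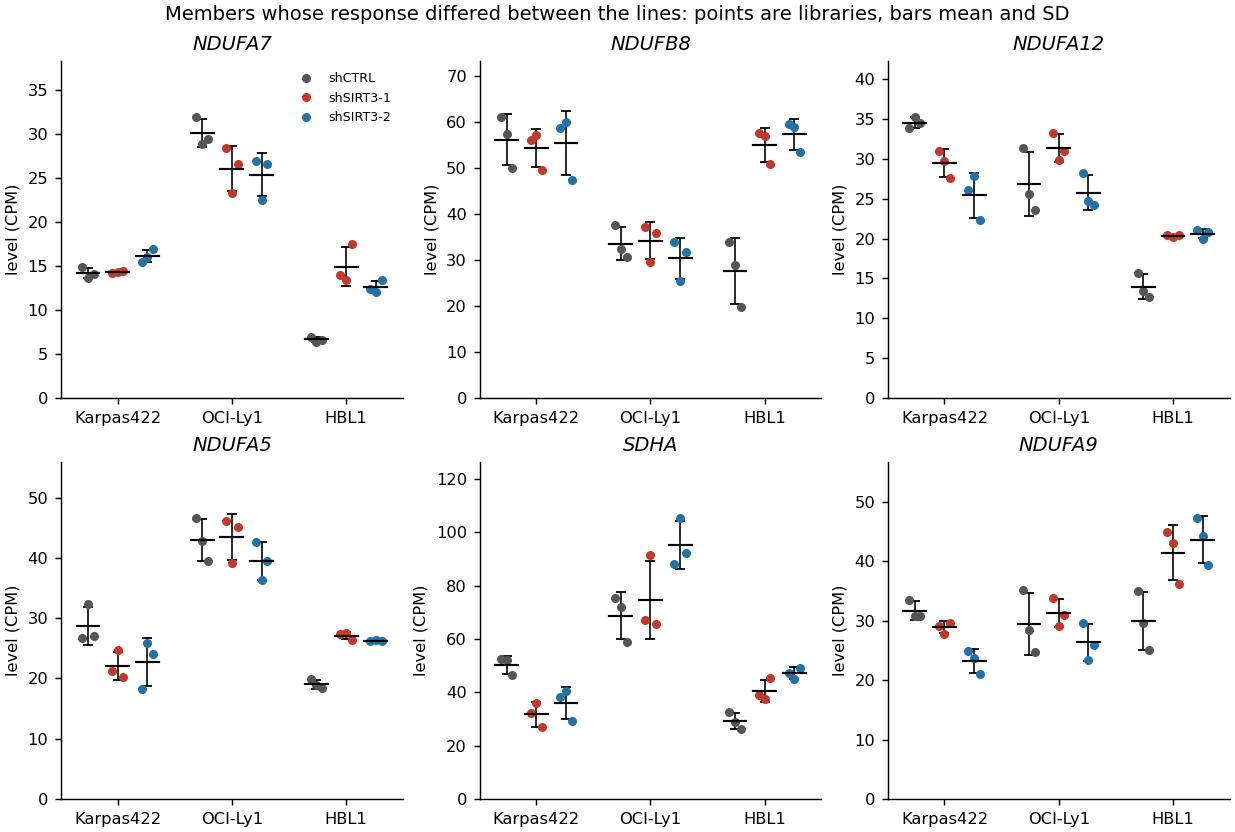
Levels in CPM (vertical axis) of NDUFA7, NDUFB8, NDUFA12, NDUFA5, SDHA and NDUFA9 in each library (points) by line and shRNA (horizontal axis), with the mean and SD of 3 replicates as bars. In HBL1 each of the 6 genes is higher in both knockdown groups than with shCTRL; in Karpas422 SDHA is lower.

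Taking the lines 1 at a time, HBL1 had the most members past the test. In HBL1, 24 members rose and 5 fell with shSIRT3-1, and 27 rose and 5 fell with shSIRT3-2, beside 14.9% higher and 25.1% lower of all genes with shSIRT3-1, and 13.5% and 21.3% with shSIRT3-2. At 1.5-fold, 0 members were lower with either shRNA, beside 2232 of 11862 genes with shSIRT3-1 and 1895 with shSIRT3-2. With the correction for GC content and length, 2 members were lower at 1.5-fold with shSIRT3-1. In the main fit, 9 members were higher at 1.5-fold with shSIRT3-1, beside 8.83% of all genes, and 14 with shSIRT3-2, beside 7.51%. After COX7C, NDUFA7 and NDUFB8, these were NDUFA3, NDUFS4, NDUFC1, ATP5I, SDHC and NDUFA2 with shSIRT3-1, which were chosen after their values were seen. SDHC in HBL1 with shSIRT3-1 was 20.7, 18.9 and 34.4 CPM, and the value of 34.4 is that of the replicate that stood apart. Without that library, 27 members rose and 5 fell with shSIRT3-1, and 6 were called at 1.5-fold. Without HBL1 shCTRL replicate 2, 17 rose and 2 fell with shSIRT3-1, and 18 rose and 1 fell with shSIRT3-2. Without HBL1 shCTRL replicate 3, 17 rose and 6 fell with shSIRT3-1, and 20 rose and 2 fell with shSIRT3-2. At 1.5-fold, only 6 members were then higher with shSIRT3-1 and 6 with shSIRT3-2, and 1 was lower with shSIRT3-1. Of 11674 genes, 3102 and 2230 were called at 1.5-fold in either direction in those fits. With shSIRT3-2, leaving out its replicates 1, 2 and 3 in turn left 18, 21 and 21 members. With the correction for GC content and length, 19 rose and 7 fell with shSIRT3-1, with a median of -0.001, and 18 rose and 4 fell with shSIRT3-2. Quantile normalization, median-ratio scaling and edgeR gave 34 and 2, 32 and 2, and 31 and 2 with shSIRT3-1. The last pair of settings gave 37 and 1 and 34 and 1 with shSIRT3-2. Of all genes with shSIRT3-1, 1669 of 11590 were higher and 2797 lower with the correction, and 2637 and 2240 of 11859 with quantile normalization. Median-ratio scaling gave 2320 and 2402 of 11841 genes, and edgeR 2511 and 2487 of 11862. With shSIRT3-2 the correction gave 1577 and 2446 genes, median-ratio scaling 2296 and 1939, and edgeR 2070 and 2340. Scaling also moved the median of all genes in HBL1 with shSIRT3-1, from -0.10 to 0.04 under quantile normalization, as it moved that of the members from 0.11 to 0.23.

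In Karpas422, 9 members rose and 6 fell with shSIRT3-1, and 10 rose and 9 fell with shSIRT3-2. Of all genes, 11.6% were higher and 22.2% lower with shSIRT3-1, and 14.7% higher and 16.4% lower with shSIRT3-2. At 1.5-fold COX7C and NDUFB10 rose with each shRNA, and SDHA fell with shSIRT3-1. NDUFB10, an accessory subunit of complex I, was 27.6, 18.7 and 36.0 CPM with shCTRL, 43.7, 45.1 and 38.9 with shSIRT3-1, and 49.85, 52.0 and 35.7 with shSIRT3-2. The shCTRL libraries spread over nearly that difference, and the calls (0.68, SE 0.22, adjusted p = 0.0382, and 0.77, SE 0.22, adjusted p = 0.0249) were lost without shCTRL replicate 1 or 2, without any shSIRT3-1 library for the first, and without shSIRT3-2 replicate 1 or 2 for the second. The first call was also lost with the correction for GC content and length (0.51, adjusted p = 0.0748), with that correction and the replicate block, and without the filter on low values. The correction for GC content and length gave 4 rises and 14 falls with shSIRT3-1; quantile normalization gave 11 and 4, median-ratio scaling 13 and 5, and edgeR 14 and 4. Of all genes with shSIRT3-1, 1198 of 10983 were higher and 2299 lower with the correction, and 1822 and 1804 of 11239 with quantile normalization. Median-ratio scaling gave 1645 and 1978 of 11232 genes, and edgeR 1820 and 1984 of 11235. Without shSIRT3-1 replicate 1, 9 members passed with that shRNA.

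In OCI-Ly1 a single member, COX7C, passed with each shRNA, and 0 fell. Of all genes, 3.65% were higher and 3.66% lower with shSIRT3-1, and 3.81% higher and 5.6% lower with shSIRT3-2. At an unadjusted p under 0.05, 11 members passed with shSIRT3-1 and 6 with shSIRT3-2. The share of all genes at that cut was not counted, so these counts cannot be set against it. Without shCTRL replicate 1, the library in which the members were high, 20 members rose with shSIRT3-1 and 12 with shSIRT3-2, and 0 fell with either; of all genes, 11.8% were then higher and 8.04% lower with shSIRT3-1, and 11.4% and 10.1% with shSIRT3-2. Without shCTRL replicate 2 or 3, or without any 1 library of the shRNA tested, 0 members passed; without shSIRT3-1 replicate 2, 2 passed with shSIRT3-2. With the replicate number as a block, 2 members passed with shSIRT3-2 and 1 with shSIRT3-1.

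The summed level of the 80 members was also set side by side. In Karpas422 it was 3971 ± 178 CPM with shCTRL, 4021 ± 179 with shSIRT3-1 and 3952 ± 308 with shSIRT3-2. In OCI-Ly1 it was 5316, 4126 and 4259 CPM with shCTRL, so that the first library lay above the range of the other groups, whose means were 4834 ± 378 and 4642 ± 282. In HBL1 the means were 4012 ± 255, 4188 ± 277 and 4540 ± 100. Only in HBL1 with shSIRT3-2 did all 3 libraries (4646, 4526 and 4447) lie above all shCTRL libraries (4210, 4103 and 3725). With shSIRT3-1 the HBL1 sums were 4279, 4408 and 3877, which overlapped shCTRL as groups while each was higher than the shCTRL library of its own replicate number. The sum of the 4 complex II genes was 124 ± 4 CPM in Karpas422 with shCTRL and 109 ± 5 and 109 ± 10 with the shRNAs, without overlap. In HBL1 it was 114 ± 6 with shCTRL and 137 ± 7 and 142 ± 3 with the shRNAs, also without overlap. In OCI-Ly1 it was 183 ± 22 with shCTRL and 195 ± 11 and 204 ± 5 with the shRNAs, and the groups overlapped. The shifts in Karpas422 and HBL1 were largest in SDHA. In Karpas422 its mean went from 50.2 to 31.7 and 36.0 CPM, SDHB from 43.1 to 49.6 and 45.3. SDHC there went from 14.9 to 12.8 and 13.6, and SDHD from 16.1 to 15.3 and 13.9. In HBL1 SDHA went from 29.2 to 40.6 and 47.2, and SDHB from 38.1 to 39.5 and 48.1. SDHC there went from 14.9 to 24.65, with replicate 3 at 34.4, and 18.7, and SDHD from 31.95 to 32.6 and 27.6.

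**Figure D4:**
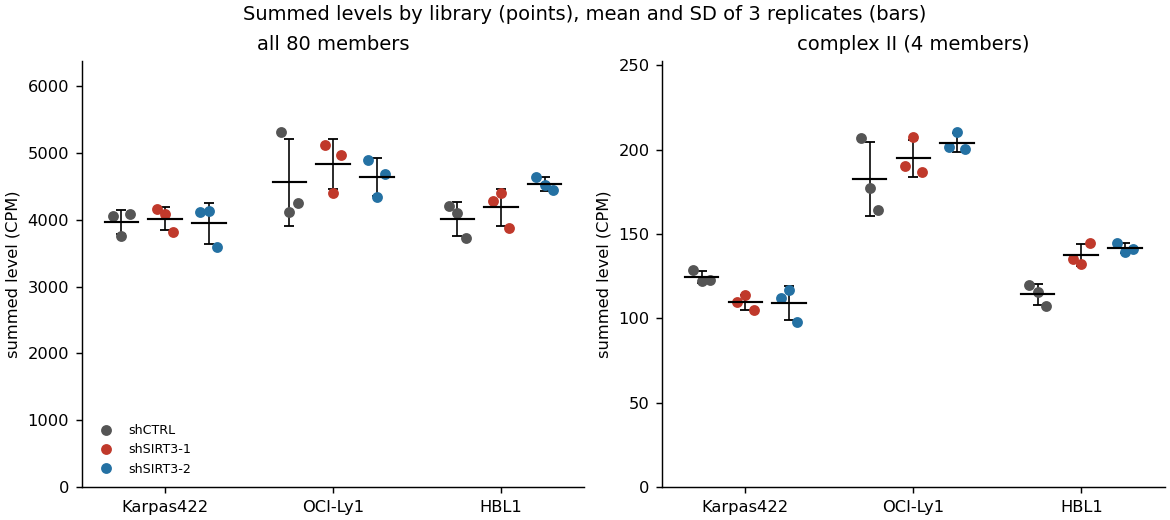
Summed level in CPM (vertical axis) of all 80 members (left) and of the 4 genes of complex II (right) in each library (points) by line and shRNA (horizontal axis), with the mean and SD of 3 replicates as bars. OCI-Ly1 shCTRL replicate 1, at 5316, is the highest of all 27 libraries on the left. On the right the knockdown libraries lie below shCTRL in Karpas422 and above it in HBL1, with the largest shifts in SDHA.

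The study describes Karpas422 as the line of the OXPHOS subtype, so the members were compared between lines in shCTRL cells, over 9 libraries and 12607 genes. More members were lower than higher in both other lines when set against OCI-Ly1. At 1.5-fold and an adjusted p under 0.05, 3 members were higher and 19 lower in Karpas422 than in OCI-Ly1, beside 28.2% and 22.6% of all genes. In HBL1 2 were higher and 26 lower than in OCI-Ly1, beside 29.6% and 25.0%. Between HBL1 and Karpas422, 7 were higher in HBL1 and 17 in Karpas422, beside 25.8% and 28.8%. The median log2 differences of the members were -0.21, -0.33 and -0.18, beside 0.08, 0.05 and -0.07 for all genes. The first was -0.10 without OCI-Ly1 shCTRL replicate 1, -0.14 without Karpas422 shCTRL replicate 2, -0.12 with the correction for GC content and length and -0.325 with median-ratio scaling, and the third was -0.05 with quantile normalization and -0.105 with median-ratio scaling. Without OCI-Ly1 shCTRL replicate 1, 4 members were higher and 13 lower in Karpas422 than in OCI-Ly1, and 3 higher and 23 lower in HBL1 than in OCI-Ly1. Quantile normalization gave 8 and 12 between HBL1 and Karpas422. Each line is 1 culture lineage, so differences between lines and between subtypes cannot be told apart.

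By complex, the median difference of Karpas422 from OCI-Ly1 was -0.29 in complex I, -0.59 in II, -0.58 in III, -0.03 in IV and 0.05 in V. From OCI-Ly1, HBL1 differed by -0.48, -0.66, -0.41, -0.38 and -0.15 in the same order. SDHD was lowest in Karpas422 at 16.1, 14.6 and 17.7 CPM, followed by HBL1 at 32.1, 31.3 and 32.5, and highest in OCI-Ly1 at 55.7, 45.2 and 43.8, with no overlap. Its difference between Karpas422 and OCI-Ly1 was -1.57 (SE 0.12, limma adjusted p = 9.95e-07). NDUFA13 (-1.24), ATP5J2 (-1.14) and ATP5L (-1.10) were also lower in Karpas422 than in OCI-Ly1, while ATP5S (1.36), ATP5C1 (1.07) and NDUFB8 (0.74) were higher. The ATP5J2 gene overlaps a readthrough gene with PTCD1, so its reads are less certain.

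HBL1 was lowest in several small subunits. NDUFA7 differed from OCI-Ly1 by -2.16 (SE 0.11, adjusted p = 2.38e-08), UQCR11 by -1.51, ATP5J2 by -1.49 and NDUFA4 by -1.44. NDUFA4 was 18.5, 16.8 and 13.55 CPM in HBL1, 46.0, 43.2 and 51.7 in Karpas422 and 58.9, 37.6 and 38.6 in OCI-Ly1, so HBL1 lay apart and the other lines overlapped. From Karpas422, HBL1 differed in NDUFA4 by -1.53, in ATP5S by -1.43, in NDUFA12 by -1.31 and in NDUFB1 by -1.13. Higher in HBL1 than in Karpas422 were ATP5L (1.42), COX4I1 (1.12), UQCRH (1.05) and NDUFV3 (1.03). ATP5A1 was higher in HBL1 than in OCI-Ly1 by 0.91 (SE 0.15, adjusted p = 0.000288): it was 550, 548 and 545 CPM in HBL1 and 364, 259 and 263 in OCI-Ly1. ATP5C1 was higher by 0.82.

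**Figure D5:**
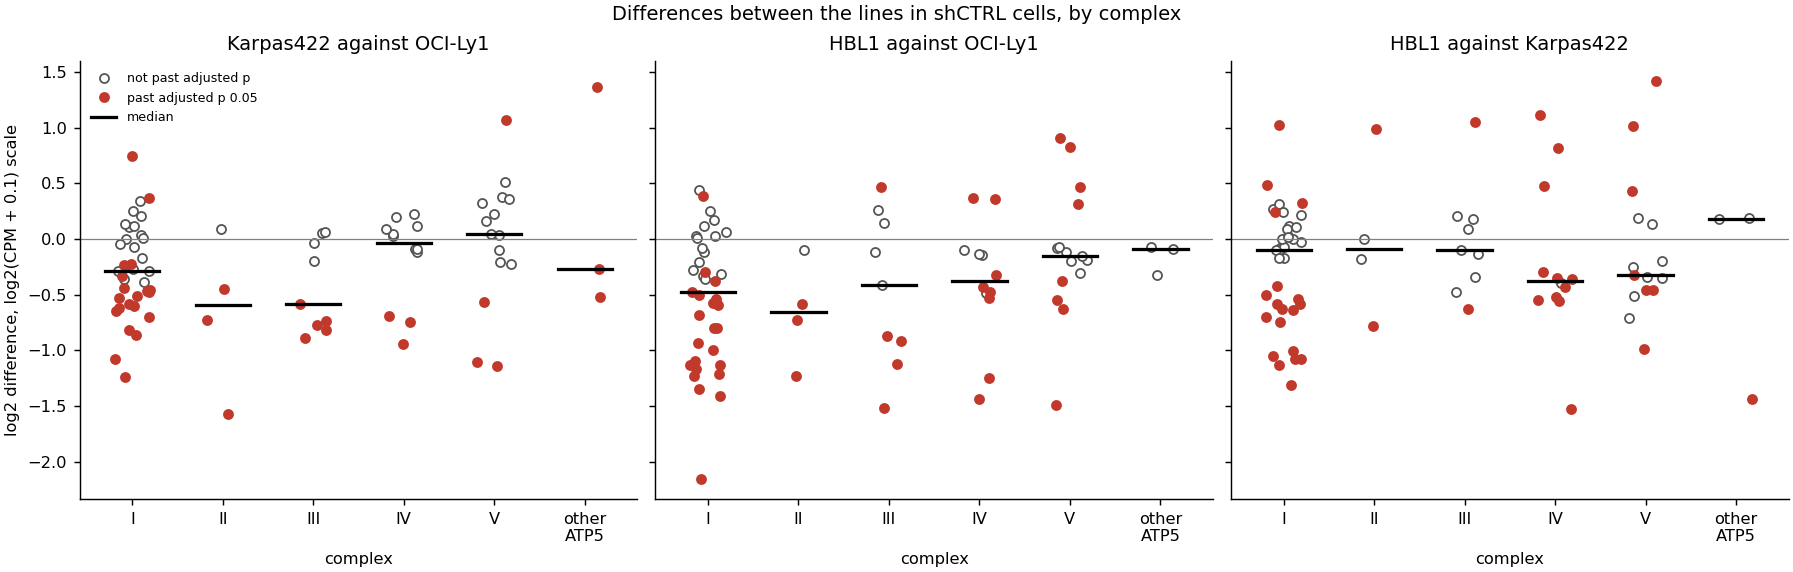
Log2 difference of each of the 80 members between lines in shCTRL cells (vertical axis, on the log2(CPM + 0.1) scale) by complex (horizontal axis), for the 3 pairs of lines. Filled points passed the adjusted p, open points did not, and bars are medians; most filled points lie below 0 in the comparisons with OCI-Ly1.

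Complex IV has isoforms that are known from heart, muscle, lung or testis. Of these, COX6A2 and COX7B2 were listed at 0 in all 27 libraries, and COX4I2, COX6B2, COX7A1 and COX8C reached at most 0.157, 0.167, 0.0943 and 0.0186 CPM. Their common counterparts were measured in every library: COX4I1 from 84.6 to 250 CPM, COX6A1 from 12.8 to 35.3, COX6B1 from 39.2 to 73.1, COX7A2 from 29.5 to 52.1, COX7B from 28.9 to 68.7 and COX8A from 33.0 to 71.8. COX4I1 was at -0.04 and -0.03 over the 3 lines and did not pass the test. ATP5L2, the seventh name under the minimum, reached 0.189 CPM.

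The listed transcripts of the members are short, with a median of 830 bases beside 3228 for all genes tested. Of the 45 members with a transcript under 1000 bases, 14 rose and 2 fell with shSIRT3-1, and 18 rose and 3 fell with shSIRT3-2. Of the 35 longer ones, 3 rose and 4 fell, and 5 rose and 7 fell. Spearman's rho between length and the log2 fold change over the 80 members was -0.38 with shSIRT3-1 and -0.40 with shSIRT3-2, and -0.10 and -0.01 over all genes with a length. These are descriptions across genes that share the same libraries. Which transcript the cells use was not measured, and the transcript listed for COX7B, a small subunit of complex IV, has 2444 bases. 

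Genes that help build or regulate the complexes were counted in the same fit, in which 15.6% of all genes were higher and 22.3% lower with shSIRT3-1, and 16.3% and 21.7% with shSIRT3-2. The counts of these short lists were not tested against those shares. Of 50 assembly factors tested, 11 rose and 9 fell with shSIRT3-1, and 6 rose and 11 fell with shSIRT3-2. ACAD9, needed to assemble complex I, rose by 0.81 (SE 0.11, limma adjusted p = 4.73e-06) with shSIRT3-2 and by 0.43 with shSIRT3-1, and in all 3 lines every shSIRT3-2 library lay above every shCTRL library. SDHAF4, which helps join SDHA to complex II, changed by -0.60 (SE 0.14, adjusted p = 0.00137) and -0.66 (SE 0.14, adjusted p = 0.000571). In HBL1 SDHAF4 was near the level minimum, at 1.11, 1.07 and 1.445 CPM with shCTRL. With shSIRT3-1 it was 0.728, 0.854 and 1.55 there, which overlapped shCTRL. COX18 and COX19, needed for complex IV, changed by -0.58 and -0.55 with shSIRT3-1 and by -0.48 and -0.78 with shSIRT3-2. The mean of COX19 hardly moved in OCI-Ly1, at 13.4 CPM with shCTRL and 12.5 and 13.15 with the shRNAs. It went from 30.4 to 17.1 and 9.445 in HBL1, and from 13.7 to 8.02 and 8.76 in Karpas422.

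Of 14 regulators of mitochondrial biogenesis, 4 rose and 4 fell with shSIRT3-1, and 2 rose and 3 fell with shSIRT3-2. ESRRA, a nuclear receptor for respiratory genes, rose by 0.62 (SE 0.12, adjusted p = 0.000323) and 0.37 (SE 0.12, adjusted p = 0.0198), and PPRC1, a coactivator, by 0.59 and 0.49. Of the other factors whose motifs were searched, GABPA fell with each shRNA (-0.39, adjusted p = 0.000278, and -0.33, adjusted p = 0.0014). NRF1 changed by -0.30 (adjusted p = 0.00269) with shSIRT3-1 and was at 0.13 (adjusted p = 0.179) with shSIRT3-2. YY1 was at -0.03 (adjusted p = 0.757) with shSIRT3-1 and changed by -0.33 (adjusted p = 0.000801) with shSIRT3-2. TFAM, which packs and transcribes mitochondrial DNA, changed by -0.55 (SE 0.13, adjusted p = 0.0017) with shSIRT3-1 and did not pass the test with shSIRT3-2; between the shRNAs it differed by 0.62 (SE 0.13, adjusted p = 0.000708). In HBL1 TFAM was 77.4, 74.3 and 57.3 CPM with shCTRL, 47.7, 54.7 and 23.9 with shSIRT3-1 and 85.3, 91.1 and 77.6 with shSIRT3-2. TFB1M, which modifies mitochondrial ribosomal RNA, changed by -0.60 with shSIRT3-2 and by -0.32 (limma adjusted p = 0.017) with shSIRT3-1.

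Of 13 genes for the mobile carriers (cytochrome c and the coenzyme Q pathway) and the ATP synthase inhibitor, 2 rose and 2 fell with shSIRT3-1 and 2 rose and 3 fell with shSIRT3-2. COQ5, a methyltransferase of coenzyme Q synthesis, changed by -0.67 (SE 0.07, adjusted p = 2.62e-07) and -0.44 (SE 0.07, adjusted p = 5.47e-05), with no overlap between shCTRL and either shRNA in any line. COQ10B, a coenzyme Q binding protein, changed by 0.25 (SE 0.09, adjusted p = 0.026) with shSIRT3-1 and by -0.86 (SE 0.09, adjusted p = 1.34e-07) with shSIRT3-2. PDSS2, for the coenzyme Q side chain, changed by -0.40 with shSIRT3-1 and by -0.23 (limma adjusted p = 0.011) with shSIRT3-2. PDSS1, its partner, changed by 0.54 (adjusted p = 0.0373) with shSIRT3-2. The PDSS1 call was lost without the filter on low values and without any 1 of 8 single libraries (adjusted p up to 0.0794). Those were HBL1 shCTRL replicate 3, any HBL1 shSIRT3-2 library, Karpas422 shCTRL replicate 2 or shSIRT3-2 replicate 1, or OCI-Ly1 shCTRL replicate 2 or 3. For COQ10B the shRNAs differed by -1.11 (SE 0.09, adjusted p = 1.17e-09). In HBL1 COQ10B was 11.4, 12.7 and 11 CPM with shCTRL, 14.7, 12.9 and 18.1 with shSIRT3-1 and 5.93, 6.58 and 6.49 with shSIRT3-2, so the shRNAs lay on opposite sides of the control in that line. The rise with shSIRT3-1 over the 3 lines lost its call (adjusted p up to 0.0542) without HBL1 shSIRT3-1 replicate 3, OCI-Ly1 shCTRL replicate 2 or OCI-Ly1 shSIRT3-1 replicate 2.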

How the data were processed

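Total RNA was extracted with TRIzol and RNeasy columns, made into TruSeq libraries with random priming and sequenced as paired 50-base reads. Per the submitters' notes, STAR was used for alignment on hg19 and Rsubread for counting on RefSeq genes; strandedness is not given in the sources used here. The authors deposited values under the name FPKM. Within a library, 100% of them were whole multiples of a single step at any gene length (within 0.001 of a whole read), so these deposited values were treated as CPM. The reads on genes made up 40.3% to 45.6% of the total the authors divided by. The design had been written for FPKM and was kept. Precision follows from the replicates.

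Values were analysed as log2(CPM + 0.1) for genes with at least 1 CPM in at least 3 fitted libraries, so fold changes of low genes are understated. Linear models with terms for line and shRNA, with their interaction (F test on 4 terms), for each line alone and for shCTRL cells were fitted with limma 3.58.1 in R 4.3.3, with a variance trend and Benjamini-Hochberg adjustment over all genes tested; calls used an adjusted p under 0.05, and 1.5-fold where stated. All tests were two-sided. The fits were tested on simulated data. Python 3.11.15 read the files and matplotlib drew the figures. The members and lists were chosen with earlier results of these data known. Named genes were chosen by rule: the 5 largest rises and falls past the adjusted p for each shRNA, the 5 smallest interaction p-values, up to 4 highest in each line per pair of lines among those called, up to 3 called at 1.5-fold per line, shRNA and direction, the SDH genes, known SIRT3 substrates, isoforms of complex IV, and up to 3 past the adjusted p per list.

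Alternatives were a pseudocount of 1, median-ratio scaling, quantile normalization, all genes without a level minimum, the replicate number as a block, a lowess correction (span 0.3) for GC content and length of the GENCODE v44lift37 transcript, both together, edgeR 4.0.16 (likelihood ratio test on reads recovered from the steps), and leaving out libraries. Over the 3 lines edgeR called 2463 genes higher and 2755 lower with shSIRT3-1, and 2332 and 2910 with shSIRT3-2. As a check of the replicate numbers, the deviations of same-numbered libraries from their group means were correlated within each line. For other pairs r averaged -0.14. Deviations from a group mean cancel within the group, so that value is tied to the one for same-numbered pairs and adds no support. Over the 27 same-numbered pairs r averaged 0.32 (0.01 to 0.56), and 26 were over 0.1. In OCI-Ly1 and HBL1 every pair was, so the numbers were taken to pair libraries there; in Karpas422 a shCTRL and shSIRT3-2 pair was not. The source of the pairing is not stated, and the main fits left it out. In fits over several lines, the block gave each replicate number a single effect shared by the lines, so pairs within a line were not modelled there. Promoter windows are from RefSeq on GRCh38.p14. Levels were not compared between genes.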

Additional observations from a re-analysis of the deposited data

Results flagged for a closer look

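The response to knockdown differed between the lines for 17 of 80 members by the limma interaction test, beside 41.8% of all genes tested. The adjusted p was 3.34e-06 for NDUFA7, 0.000289 for NDUFA12, 0.000463 for SDHA, 0.000592 for NDUFB8 and 0.00141 for NDUFA5. It was 0.00325 for NDUFA9, 0.00526 for NDUFB6, 0.0105 for NDUFB9, 0.0114 for COX7A2 and 0.0132 for NDUFS4. It was 0.0171 for SDHC, 0.0211 for UQCR10, 0.0248 for NDUFA6, 0.0249 for COX6B1, 0.0398 for COX5A, 0.0409 for NDUFA3 and 0.0468 for NDUFB2. NDUFA9 rose in HBL1 (0.47 and 0.55) and fell in Karpas422 with shSIRT3-2 (-0.45), and NDUFA6 fell in Karpas422 with each shRNA (-0.32 and -0.27). Groups of 3 libraries were not tested for single outlying values.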

How the results depend on the processing

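The cause of each change below was not tested, except that fits on fewer libraries have less power by construction. Members called at 1.5-fold over the 3 lines with shSIRT3-1 went from 1 to 2 under median-ratio scaling and quantile normalization. Members that differed between the shRNAs went from 10 to 6 without the filter on low values and to 18 with the replicate block and the GC and length correction. With that block and correction, 3 members passed in OCI-Ly1 with shSIRT3-1, and 27 differed in response between lines, against 17. In OCI-Ly1 with shSIRT3-2, 2 passed with edgeR, quantile normalization, the replicate block, and the block with the correction. At 1.5-fold in HBL1 with shSIRT3-1, 9 higher members became 17 under quantile normalization, 15 under median-ratio scaling and 16 with edgeR. With shSIRT3-2, 14 became 21 under median-ratio scaling and 9 with the correction. All genes called there at 1.5-fold in either direction went from 3280 to 3319, 3214 and 3535 with shSIRT3-1. With shSIRT3-2 they went from 2786 to 2851 and 2662, in the same order. The replicate block alone moved no other count of called members in the text by over 1.5 times. It changed no call of a named gene. In fits over several lines the block gave each replicate number a single effect shared by the lines. Pairs within a line were not modelled there, so those fits cannot show how the results hold under the pairing. In OCI-Ly1 alone, the members at an unadjusted p under 0.05 went from 11 to 21 with shSIRT3-1 and from 6 to 10 with shSIRT3-2. The share of all genes at that unadjusted cut was not counted. All genes called there with shSIRT3-1 went from 409 higher and 410 lower to 757 and 699.

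With libraries or replicate numbers left out, counts ranged from 1 to 2 (1.5-fold, shSIRT3-1) and 1 to 3 (1.5-fold, shSIRT3-2), 10 to 30 and 10 to 35 (adjusted p, over the 3 lines), 1 to 10 between the shRNAs, and 3 to 26 for the interaction. In single lines with shSIRT3-1 and shSIRT3-2 they ranged from 1 to 20 and 1 to 29 in Karpas422, 0 to 20 and 0 to 12 in OCI-Ly1, and 2 to 49 and 1 to 51 in HBL1; the highest in HBL1 came without replicate 3 of every group. The lowest counts past the adjusted p over the 3 lines, in Karpas422 and in HBL1 came without all libraries of a replicate number. Between lines in shCTRL cells the counts ranged from 17 to 33. Of 87 values of named genes, 87 kept direction and side of the threshold with a pseudocount of 1, 86 with edgeR and 80 with the GC and length correction.

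Values near 0 that changed sign, none past the test, were NDUFA9 with shSIRT3-2 (0.007 with the correction, with or without the block, 0.0135 with median-ratio scaling, and between -0.0888 and 0.0292 with libraries left out), SDHA with shSIRT3-1 (0.0208 with quantile normalization, and between -0.0942 and 0.0593 with libraries left out) and SDHC with shSIRT3-2 (-0.0194 without HBL1 shCTRL replicate 1 and -0.0021 without replicate 2, and up to 0.0726 with other libraries left out).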
